A study of Rattus norvegicus with 241 samples.

Results

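The epithelial junction genes were taken as all genes whose symbol names a claudin (CLDN), a zonula occludens protein (TJP), occludin (OCLN), MARVELD2, MARVELD3, F11R, a desmosomal protein (DSP, JUP and the PKP, DSG and DSC families), an epithelial cadherin (CDH1, CDH3), a catenin (the CTNNA, CTNNB and CTNND families) or a connexin of the GJA or GJB families. This rule used symbols alone and found 62 genes among the 21707 genes measured in at least 1 table. By structure they were 29 tight junction genes, 13 desmosomal genes, 13 gap junction genes and 7 adherens junction genes, with JUP (plakoglobin), which sits in adherens junctions as well as desmosomes, counted once with the desmosomal genes. Of the 62, 57 were measured in bulk RNA-seq, 53 in single cells and 48 in both, and 36 had a row in every one of the 16 bulk tables. DSC1, DSG1, DSG2, DSP and PKP4 were measured only in the single-cell tables.

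Epithelial cells are held together by adherens junctions, in which cadherins such as CDH1 (E-cadherin) bind across the cell border and anchor actin through the catenins, and by desmosomes, in which desmogleins (DSG) and desmocollins (DSC) are tied to keratin filaments by plakoglobin, plakophilins (PKP) and desmoplakin (DSP). Tight junctions seal the space toward the lumen: claudins, occludin and the MARVELD proteins form the strands, and TJP proteins connect them to actin. Gap junctions are channels of connexins that let small molecules pass between cells. The mammary duct has an inner luminal layer that faces the lumen and an outer contractile basal layer, and TGFβ is known as a regulator of epithelial adhesion in many tissues.

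The samples were 202 bulk and 39 single-cell libraries from female rats of the ACI and Sprague-Dawley (SD) strains given vehicle or the TGFβ receptor inhibitor LY2157299 (written LY22157299 in the sample labels, here TGFBRi) at 75 mg/kg by oral gavage, 2 doses per day. Dosing ran for 10 days, except for 21 days in the estradiol experiment. Young virgin ACI rats, dosed from 35 days of age, were sampled 0, 7 and 14 days after the last dose with 3 rats per arm and day, and young virgin SD rats, dosed from about 24 days of age, at day 0 with 4 rats per arm. The 4 treated SD rats included 2 described as weak and 2 as strong responders, which were kept as 1 group. Adult ACI rats of 18 to 24 weeks, virgin or parous, were sampled at day 0 with 4 rats per parity and arm for the epithelial fractions and 2 to 4 for CD45+ cells. In the NMU experiment virgin SD rats were dosed from 21 days of age, then received 1 injection of the carcinogen N-nitroso-N-methylurea at 50 mg/kg, and were collected at day 87 as vehicle tumor-bearing, TGFBRi-treated tumor-free and TGFBRi-treated tumor-bearing rats, 3 of each. In the estradiol (E2) experiment virgin ACI rats dosed from 38 days of age received an empty implant or one of 37 mg estradiol at 60 days, and the luminal fraction came from 4 vehicle rats without E2, 4 vehicle tumor-bearing rats with E2, 3 TGFBRi-treated rats without E2, 4 TGFBRi-treated tumor-free rats with E2 (7 samples, 4 of them parts of 1 rat, averaged) and 2 TGFBRi-treated tumor-bearing rats with E2. The paper places the end of the E2 experiment months after the last dose. All sequenced vehicle rats given NMU or E2 bore tumors, so in comparisons with tumor-free treated rats tumor status and treatment cannot be told apart. Fractions were sorted within CD31-CD45- cells as CD24+CD29high basal and CD24+CD29low luminal cells, beside CD45+ leukocytes. Tumors were sorted into EPCAM+ and CD45+ cells. Sorted basal and luminal cells of 6 ACI rats (3 per arm) and 9 SD rats (3 vehicle, 6 TGFBRi) and whole unsorted glands of 9 SD rats (3 vehicle, 6 TGFBRi), all virgin, were profiled as single cells at day 0. Each library came from 1 rat, so the spread between replicates is the spread between rats.

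Bulk libraries held 4194912 to 52314784 reads in genes. The sort labels were checked against marker genes fixed for each cell type: in young ACI vehicle rats at day 0 the summed normalized counts of the basal list ranged from 200403 to 254839 in basal libraries and from 1105 to 2241 in luminal ones. The data sets of sorted ACI, sorted SD and whole-gland SD cells held 16762, 39766 and 103524 cells, with medians of 4251 to 15941, 4365.5 to 14448 and 2820 to 3885 UMIs (counted molecules) per cell across libraries, and 35, 216 and 6127 cell barcodes that occurred in more than 1 library, at most 3, 7 and 284 in any pair of libraries. The basal and luminal libraries of the young ACI vehicle rat numbered 3 at day 7 are titled as control and described as treated, and were kept as vehicle. In bulk samples fewer cells of a type and less RNA per cell cannot be told apart.

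Some libraries stood apart in the junction genes themselves. In the young ACI basal fraction, CDH1, CTNNB1 (β-catenin), CTNND1 (p120-catenin, which stabilizes cadherins at the membrane) and TJP1 (ZO-1) were all under 50% of the median library in 4 of 18 libraries: TGFBRi day 7 replicate 1, TGFBRi day 14 replicate 3, vehicle day 7 replicate 3 and vehicle day 14 replicate 1. Relative to the median library of that fraction, CDH1 lay at 0.192 to 0.265 and CTNND1 at 0.137 to 0.175 in these 4, against 0.557 to 1.66 and 0.490 to 1.45 in the other 14. Other genes of these libraries lay far from the median on both sides: of all genes averaging 50 or more normalized counts, 19.4 to 28.8% were below that mark in the 4 libraries and 0.364 to 17.6% in the rest, and 13.8 to 24.3% were above 2 times the median in the 4 and 1.17 to 13.6% in the rest. The luminal libraries of 2 of the same rats (TGFBRi day 7 replicate 1 and vehicle day 7 replicate 3) showed the same pattern, with CDH1 at 0.179 to 0.183. That of another of them, TGFBRi day 14 replicate 3, came close, with CDH1 at 0.296, CTNNB1 at 0.293, CTNND1 at 0.198, TJP1 at 0.533 and 23.5% of all genes below the mark. The pattern was also seen in 2 of 16 adult basal libraries, TGFBRi virgin replicates 3 and 4, with CDH1 at 0.342 to 0.366. TGFBRi virgin replicates 1 and 2 leaned the same way, with 10.9 and 10.0% of all genes below the mark. CTNND1 lay at 0.463 and 0.380 in them, CTNNB1 at 0.564 and 0.681 and TJP1 at 0.364 and 0.429. In the other adult basal groups at most 5.37% of all genes were below it. The shares above 2 times the median, 6.21 and 2.08% in these 2, lay within the range of those groups. Among the whole glands, vehicle rat 4 of the 3 vehicle rats stood apart in its cell classes: B-like cells were 1.54% of its cells against 16.7 to 23.9% in the other 8 rats, luminal progenitor-like cells 3.72% against 8.22 to 17.6%, fibroblast-like cells 22.3% against 5.41 to 11.3% and mural-like cells 13.5% against 1.58 to 6.03%.

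The start regions of 4 tight junction genes that were higher in luminal cells in every data set compared, and of GJA1 (connexin 43), which was higher in basal cells in each, are shown because the first group shares a short motif that GJA1's region does not hold. The sequences run from 250 bases before to 50 bases after the annotated gene start in RefSeq (build GRCr8), 5′ to 3′ on the gene's strand, and capitals mark the E-box CAGGTG or its reverse complement CACCTG, the sequence bound by SNAI and ZEB repressors. CLDN3 lies at chr12:27346498-27346797, minus strand, CLDN7 at chr10:55188420-55188719, plus strand, OCLN at chr2:33441149-33441448, minus strand, TJP3 at chr7:9084174-9084473, plus strand and GJA1 at chr20:36302314-36302613, plus strand.
CLDN3: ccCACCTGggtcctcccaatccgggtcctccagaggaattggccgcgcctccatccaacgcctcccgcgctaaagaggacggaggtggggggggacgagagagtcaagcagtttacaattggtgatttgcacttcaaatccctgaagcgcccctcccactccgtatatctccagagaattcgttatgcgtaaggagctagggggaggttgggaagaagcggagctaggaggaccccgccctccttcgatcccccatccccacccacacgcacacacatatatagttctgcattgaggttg
CLDN7: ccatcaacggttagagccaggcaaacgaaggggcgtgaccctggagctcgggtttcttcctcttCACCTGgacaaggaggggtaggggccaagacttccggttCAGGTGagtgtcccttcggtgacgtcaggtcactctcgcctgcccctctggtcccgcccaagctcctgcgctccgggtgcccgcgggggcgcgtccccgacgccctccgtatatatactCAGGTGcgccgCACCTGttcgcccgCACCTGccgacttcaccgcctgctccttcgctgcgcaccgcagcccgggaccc
OCLN: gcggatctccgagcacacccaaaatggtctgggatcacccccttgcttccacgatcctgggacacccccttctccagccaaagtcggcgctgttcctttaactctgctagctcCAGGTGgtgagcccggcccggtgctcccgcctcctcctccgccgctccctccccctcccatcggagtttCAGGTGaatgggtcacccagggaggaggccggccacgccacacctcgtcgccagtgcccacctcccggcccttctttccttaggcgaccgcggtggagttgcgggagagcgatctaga
TJP3: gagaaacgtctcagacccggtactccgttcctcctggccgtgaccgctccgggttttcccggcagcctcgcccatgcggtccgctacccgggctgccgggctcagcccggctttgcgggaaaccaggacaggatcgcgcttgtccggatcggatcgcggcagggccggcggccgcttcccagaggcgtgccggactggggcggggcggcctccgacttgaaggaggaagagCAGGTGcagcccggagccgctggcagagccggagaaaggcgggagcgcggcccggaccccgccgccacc
GJA1: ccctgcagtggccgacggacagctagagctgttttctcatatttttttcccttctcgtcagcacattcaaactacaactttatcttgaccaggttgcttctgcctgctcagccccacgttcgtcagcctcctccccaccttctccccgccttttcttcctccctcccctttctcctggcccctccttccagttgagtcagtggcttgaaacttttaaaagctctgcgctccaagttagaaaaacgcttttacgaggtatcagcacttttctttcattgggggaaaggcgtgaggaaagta
The motif occurred 5 times in the CLDN7 region, 2 times in the OCLN region and 1 time each in those of CLDN3 and TJP3. Promoter sequences were matched for 46 of the 62 junction genes, and 17 of these (36.96%) held the motif in at least 1 matched promoter. Of all promoters, counted singly, 6304 of 33469 (18.84%) held it, so the shares per gene and per promoter are not a like comparison. The motif was found in 7 of the 11 matched genes that were higher in luminal cells in all 4 lineage comparisons below (CLDN3, CLDN6, CLDN7, F11R, GJB2, OCLN and TJP3). It was found in 0 of the 5 matched genes that were higher in basal cells in all 4. Genes called higher in basal cells in only some comparisons did hold it. CLDN14 was called so in bulk of both strains, and CLDN11 and DSP in single cells of both strains. DSP had no bulk values and could not be called in all 4. These are letters in a window of 300 bases, and whether any factor binds them was not measured.

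The comparison of basal with luminal cells of vehicle rats asks which junction genes mark each layer. In young ACI rats 16 of 29 tight junction genes were higher in luminal and 3 in basal cells, against 2 and 3 of 8 desmosomal genes, 2 and 2 of 13 gap junction genes and 0 and 2 of 7 adherens junction genes. Luminal cells also held most of the connexins GJB1 and GJB2, whereas basal cells held the desmosomal cadherins DSC3 and DSG3, the cadherin CDH3 (P-cadherin) and the connexin GJA1. CDH1, TJP1, CTNNB1 and CTNND1 showed no called difference between the layers in this fit. In all, 30 of 57 junction genes passed an adjusted p of 0.05 (limma on log2 of the normalized count plus 1, 9 rats), 10 higher in basal and 20 in luminal cells, and 34.1% of all genes tested passed it. The median log2 difference, basal minus luminal, was -1.40 for tight junction genes, 0.28 for adherens junction genes, 0.18 for desmosomal genes and -0.17 for gap junction genes, beside 0.14 for all genes tested.

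Among the claudins, CLDN4 was the most abundantly counted, with lowest, median and highest values of 48416, 149838 and 264221 normalized counts in the 9 luminal libraries and 477, 2869.7 and 10523 in the 9 basal ones. CLDN3 gave 12899, 18696 and 53672 in luminal against 170.4, 399 and 1567 in basal libraries, and CLDN7 gave 1151, 1884 and 2746 against 5.87, 41.2 and 139. No basal library reached the lowest luminal one for these 3 claudins, and the differences (basal minus luminal) were log2 -5.52, SE 0.27, adjusted p = 6.64e-16 for CLDN4, log2 -5.45, SE 0.31, adjusted p = 1.37e-14 for CLDN3 and log2 -5.72, SE 0.28, adjusted p = 5.79e-16 for CLDN7. A signed value in parentheses after a gene is its log2 difference throughout. Occludin, the strand protein, followed the claudins: OCLN was 2751, 4614 and 7191 in luminal and 82.2, 153 and 342 in basal libraries (log2 -4.79, SE 0.23, adjusted p = 5.92e-16). MARVELD2 (tricellulin, found where 3 cells meet) and MARVELD3 were higher in luminal cells by log2 differences of -3.52 and -5.13, and TJP3 by -3.93, while the scaffold TJP1 was at -0.10 and was not called. F11R (JAM-A, an immunoglobulin-type adhesion molecule of tight junctions) was called with a smaller difference, -1.40, at mean levels of 3117 in basal and 8354 in luminal cells. The other claudins higher in luminal cells were CLDN10 (-5.08), CLDN6 (-3.32), CLDN9 (-3.28), CLDN17 (-3.18), CLDN23 (-2.81), CLDN2 (-2.08), CLDN8 (-1.93) and CLDN1 (-1.33, adjusted p = 0.0177). Of these CLDN17 and CLDN2 averaged only 16.7 and 10.3 normalized counts in luminal libraries. CLDN11, CLDN14 and CLDN22 were higher in basal cells, at mean levels of 5.78, 10.1 and 3.84 normalized counts.

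Desmosomal genes split by family member. DSC3 was 931, 2099 and 3878 in basal and 0, 3.77 and 30.6 in luminal libraries (log2 8.83, SE 0.71, adjusted p = 2.64e-11), and DSG3 was 131, 385 and 1484 against 0, 4.37 and 18.1 (log2 6.78, SE 0.62, adjusted p = 3.65e-10). These 2 cadherins are also those of stratified epithelia such as skin. The plakophilins, which link desmosomal cadherins to desmoplakin, went both ways: PKP1 was higher in basal cells (1.24) and PKP2 in luminal cells (-4.48, means 44.2 and 940.1), and PKP3 was not called (0.42). DSC2 was slightly higher in luminal cells (log2 -0.74, adjusted p = 0.0462), and JUP, at log2 -0.79, adjusted p = 0.083, was not called.

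In the adherens junction, CDH3 was 601, 988 and 2012 in basal and 11.2, 20.4 and 85.6 in luminal libraries (log2 5.34, SE 0.46, adjusted p = 1.03e-10). CTNND2, a δ-catenin best known from neurons, was 659.5, 1405 and 1877 against 0, 7.83 and 19 (log2 7.61, SE 0.54, adjusted p = 2.03e-12), so that both were basal genes with no overlap between fractions. CDH1 was 2858, 13796 and 21421 in basal and 4190.4, 22365 and 44157 in luminal libraries (log2 -0.83, SE 0.50, adjusted p = 0.23), with the lowest values in the libraries that stood apart. Without the 4 rats of those libraries, a setting chosen after seeing the data, CDH1 was called lower in basal cells (log2 -0.59, SE 0.14, adjusted p = 0.00115), as was JUP (-0.67), CTNNA1, PKP3 and CLDN12 were called higher, and CLDN1 (-1.28) was no longer called, giving 34 called genes beside 43.1% of all genes.

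Connexins differed between the layers in both directions. GJA1 was 3598, 6105 and 16369 in basal and 324, 623 and 992 in luminal libraries (log2 3.55, SE 0.29, adjusted p = 3.01e-11), while GJB2 (connexin 26) was 39.4, 57 and 369 against 1566, 2719.5 and 9739 (log2 -5.14, SE 0.22, adjusted p = 4.69e-17). GJB1 (connexin 32) followed GJB2 with -4.96. GJA4 (connexin 37), known from vessels, was higher in basal cells (2.03, means 83.4 and 21.4).

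Other genes of the same structures, from lists apart from the 62, also differed between the layers of young ACI rats. Of all genes 19.1% were called higher in basal and 15.0% in luminal cells. Of 17 other tight junction genes 8 were higher in luminal cells, among them CGNL1 (paracingulin, -4.28) and the polarity protein CRB3 (-5.00), and 5 in basal cells, led by JAM3 (7.82). Of 14 other adherens junction genes 5 were higher in luminal cells, such as NECTIN4 (-6.30), and 6 in basal cells, such as NECTIN3 (3.53) and CDH2 (3.61). EVPL and PPL, which link desmosomes to keratin, were higher in luminal cells, and PERP in basal cells. Of 12 regulators of the epithelial state the repressors SNAI2 (8.01), ZEB1 (2.65), ZEB2 (3.56), TWIST1 (2.84) and SNAI1 (1.14) were higher in basal cells, and OVOL1, OVOL2, ESRP1 and ESRP2 in luminal cells. The basal libraries also held more of the marker lists of mural cells (4 of 6 genes called higher and 1 lower), fibroblasts (3 of 5) and Schwann cells (4 of 5), and their part in the basal values was not tested.

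**Figure D1:**
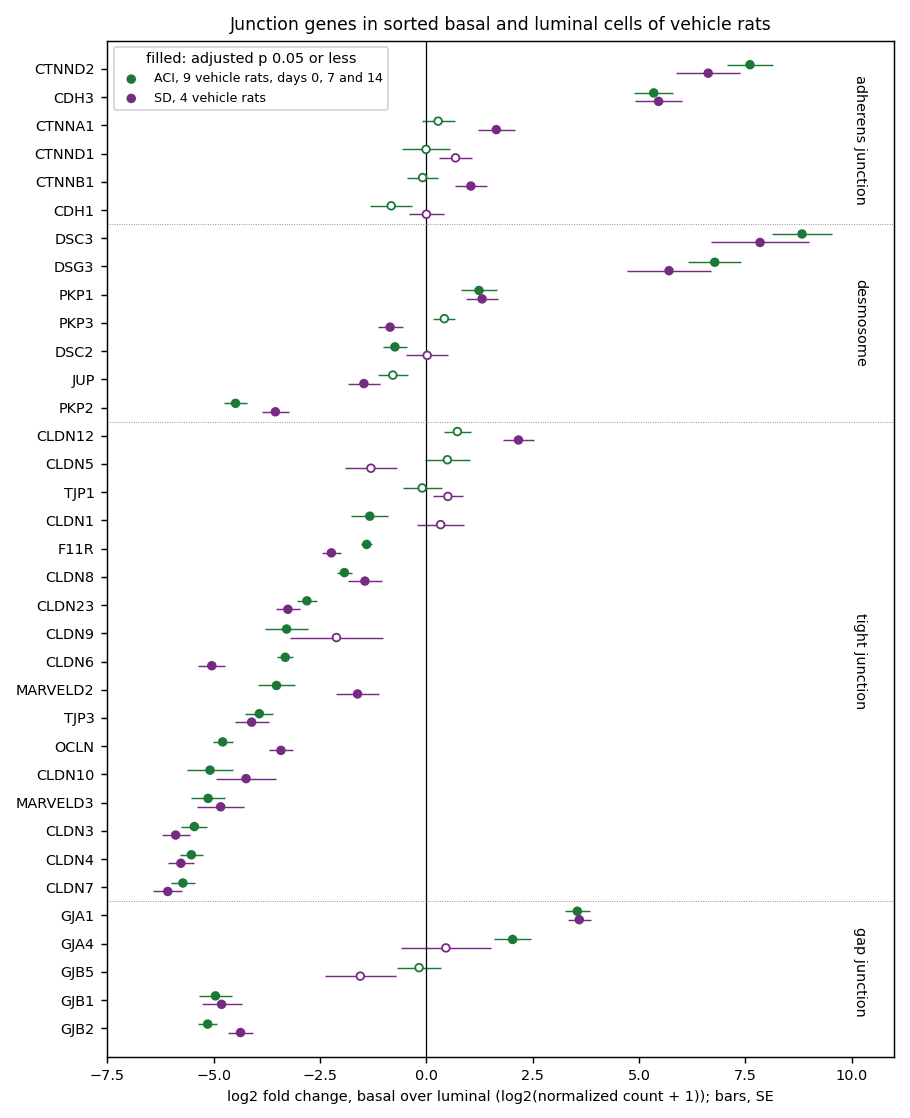
Mean log2 difference, basal minus luminal, in vehicle rats, of the junction genes reported here that were tested in both strains and averaged 50 or more normalized counts in at least 1 fraction, by gene and junction type, for ACI (9 rats, green) and SD (4 rats, purple). Positive values are higher in basal cells, bars are SE, and filled points passed the test. The largest positive difference in young ACI rats was that of DSC3 and the largest negative one that of CLDN7.

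The same comparison in young SD rats (4 vehicle rats per fraction) called 30 of 49 junction genes, 12 higher in basal and 18 in luminal cells, beside 50.1% of all genes. Of the genes called higher in basal cells, 7 were called in both strains (70% of the 10 in ACI and 58.3% of the 12 in SD), and of those higher in luminal cells 15 (75% and 83.3%). How many of all genes were called alike in both strains was not counted. CLDN4 was 3074, 2219.9, 2535 and 4063 in basal and 207691, 131826, 175016 and 130046 in luminal libraries (log2 -5.77, adjusted p = 9.94e-10), and GJA1 5081, 4232, 3968 and 5214 against 399.5, 536, 264 and 367 (log2 3.59, adjusted p = 2.03e-08), again without overlap. CLDN2, a claudin that forms cation pores, was the 1 gene called in opposite directions, -2.08 in ACI and 2.5 in SD rats. Its ACI means were only 1.35 normalized counts in basal and 10.3 in luminal libraries, so its direction there rests on few counts. The adherens junction catenins CTNNB1 (1.05) and CTNNA1 (1.64) were higher in SD basal cells, and CDH1 was at 0.00. Adding the rat as a block called 38 junction genes in ACI and 33 in SD rats, beside 47.5% and 51% of all genes.

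Deposited single cells of the basal and luminal sorts were compared, with both sorts from each of 3 vehicle rats per strain (edgeR, adjusted p of 0.1). These rats carry other labels than the rats of the bulk libraries. The authors had removed the few sorted cells that lay in clusters made almost only of the other sort. The cells compared were thus selected in part by expression. In ACI rats 40 of 47 junction genes were called, 18 higher in basal and 22 in luminal cells, beside 65.2% of all genes, and in SD rats 30 of 50, 12 and 18, beside 41.6%. Across both strains and both methods, 14 genes were higher in luminal cells every time: CLDN3, CLDN4, CLDN6, CLDN7, CLDN8, CLDN10, CLDN23, F11R, GJB1, GJB2, MARVELD2, MARVELD3, OCLN and TJP3. The genes higher in basal cells every time were 6: CDH3, CTNND2, DSC3, DSG3, GJA1 and PKP1. The share of all genes called in the same direction every time was not counted. DSP, the keratin anchor of all desmosomes, which bulk did not cover, was at 8.63 UMIs per 10,000 in the ACI basal sort and 1.96 in the luminal sort (log2 2.14, adjusted p = 1.24e-06), and at 9.15 and 1.02 in SD rats (log2 2.99, adjusted p = 2.27e-05).

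Single cells further separated the luminal sort. Cells were clustered without the junction genes and clusters were named only from fixed markers, as basal-like, luminal progenitor-like and mature luminal-like. Levels are UMIs per 10,000 of all UMIs of that class in a rat, averaged over 3 vehicle rats. In sorted ACI cells CLDN4 was at 36.5 in luminal progenitor-like, 13.2 in mature luminal-like and 0.0295 in basal-like cells, and the 3 progenitor values (39.3, 42.4 and 27.7) lay above the 3 mature ones (11.2, 16.6 and 11.9). OCLN (1.81 against 0.521) and GJB2 (0.783 against 0.0145) had the same order of the 2 luminal classes. DSP and GJA1 ran the other way: DSP was at 8.66 in basal-like, 3.27 in mature luminal-like and 0.0596 in luminal progenitor-like cells, and GJA1 at 3.6, 1.46 and 0.0219. DSC2 was highest in mature luminal-like cells (0.928, against 0.162 in basal-like and 0.0543 in progenitor-like cells). Sorted SD cells gave the same orders, with DSP at 9.57, 3.47 and 0.0317 and GJB2 at 2.29 in progenitor-like and 0.0393 in mature luminal-like cells. These are descriptions of classes and were not tested.

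Whole glands placed the same genes among the stromal and vascular cells. CLDN4 was at 56 in luminal progenitor-like and 34.1 in mature luminal-like cells, and its 0.270 in basal-like cells was no higher than the 0.30 in endothelial-like cells, which should lack it, and was read as background. CLDN5, the claudin of vessels, was at 10.0 in lymphatic endothelial-like and 3.40 in endothelial-like cells. GJA4 was highest in mural-like cells (4.38), followed by lymphatic endothelial-like cells (2.25). CLDN19 (2.20) and GJB1 (1.09, with 0.0784 in luminal progenitor-like cells) led in Schwann-like cells, in which both are known components of myelin. GJA1 was shared by basal-like (1.75), fibroblast-like (1.71) and endothelial-like cells (1.25), and F11R by luminal progenitor-like (6.78), mature luminal-like (6.42) and lymphatic endothelial-like cells (5.21). TJP1 and CTNNB1 were found in epithelial and endothelial classes alike, TJP1 at 1.68 in endothelial-like cells and CTNNB1 at 2.53 in lymphatic endothelial-like cells.

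**Figure D2:**
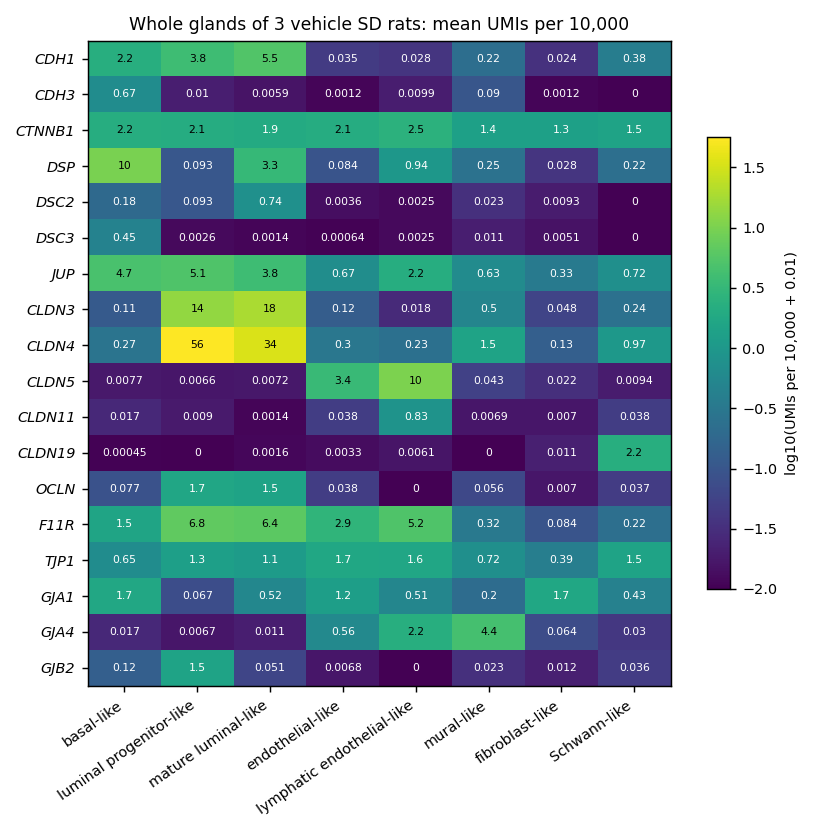
Mean UMIs per 10,000 of 18 junction genes (rows) in 8 cell classes (columns) of whole glands from 3 vehicle SD rats, printed in each cell and coloured on a log10 scale. Claudins 3 and 4 were high in the 2 luminal classes, DSP in basal-like cells (10.0) and CLDN5 in the 2 endothelial classes.

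In young ACI rats the question was whether TGFBRi changed the junction genes on the last day of dosing and whether a change lasted. By limma 1 gene was called in basal and 1 in luminal cells at day 0, and none in these 2 fractions at day 7 or 14. At day 0, GJB2 was higher in basal cells of treated rats, with 252, 265 and 139 normalized counts in the 3 treated rats against 39.4, 52.2 and 84.3 in the 3 vehicle rats (log2 1.89, SE 0.46, adjusted p = 0.0372). The lowest treated rat lay above the highest vehicle rat. At day 7 the values were 46.1, 55.8 and 28.6 in treated and 52.9, 57 and 46.8 in vehicle rats, and at day 14 they were 276, 191 and 88.5 and 246, 258 and 369, so by day 14 vehicle rats had reached the treated level of day 0. It was the 1 gene called of 57 tested, beside 3.34% of all genes. The call was lost without vehicle replicate 1 or 2 or treated replicate 1 or 2, and with edgeR. Other settings called more: 5 genes without vehicle replicate 3 (5.01% of all genes) and 9 without treated replicate 3 (17.6%), 4 with DESeq2 and with a pseudocount of 5, and 2 in a fit of only the groups compared. Treated basal libraries of that day were shallower (4194912 to 15136358 reads against 12382292 to 18781674), and their marker lists also differed: the summed basal list was 92143 to 174607 against 200403 to 254839, the Schwann list 18666 to 26202 against 5942 to 10332. GJB2 is itself a gene higher in luminal cells. The part of depth, of these lists or of luminal cells in the basal libraries in the result was not tested.

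In luminal cells at day 0, CLDN9 was lower in treated rats, at 19.9, 38.4 and 5.09 against 153, 186 and 141 in vehicle rats (log2 -3.22, SE 0.70, adjusted p = 0.0447), with no overlap. Vehicle rats themselves varied widely over time in this claudin, with 648, 212 and 555 at day 7 and 28.6, 44.9 and 19.5 at day 14. It was the 1 gene called of 56, beside 1.01% of all genes, and it was lost with edgeR, and when any vehicle replicate or treated replicate 1 or 2 was left out. Without treated replicate 3, 8 genes were called, beside 15.6% of all genes, and 4 in a fit of only the groups compared. The luminal genes that define the layer did not pass the test: CLDN3 was 13514, 11291 and 11363 in treated and 18696, 19215 and 19399.9 in vehicle rats (log2 -0.67, adjusted p = 0.538), and CDH1 was 21061, 25509.6 and 25219 and 24311, 20867 and 17989 (log2 0.19, adjusted p = 0.933).

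Basal and luminal libraries came from the same rats, so whether the TGFBRi effect at day 0 differed between the layers was tested with and without the rat as a block. Without the block no junction gene was called of 57 (9 at an unadjusted p under 0.05, 0 by edgeR, 2 by DESeq2), beside 0.152% of all genes. With the block 4 were called, all with the higher effect in basal cells, beside 1.08% of all genes: CLDN9 (log2 4.68, SE 1.06, adjusted p = 0.0392), CLDN10 (log2 4.12, SE 0.92, adjusted p = 0.0361), GJB1 (log2 3.11, SE 0.70, adjusted p = 0.038) and MARVELD2 (log2 2.91, SE 0.69, adjusted p = 0.0491). Their adjusted p without the block was 0.164, 0.333, 0.276 and 0.451. MARVELD2 in basal cells was 171, 230 and 59.8 in treated and 4.29, 16.3 and 53.1 in vehicle rats, and in luminal cells 490.4, 587 and 591 and 635, 460 and 507. CLDN10 in basal cells was 42.3, 76.6 and 12.2 against 0, 3.26 and 4.62, and in luminal cells 82.4, 33.4 and 55.2 against 60.3, 74.3 and 98.6. For both genes the arms were separate in basal and overlapped in luminal cells. GJB1 in basal cells was 14.1, 3.19 and 9.12 against 0, 3.26 and 0, and CLDN9, lower in treated luminal cells, was 62.4, 112 and 18.2 against 71.1, 19.6 and 3.47 in basal cells. All 4 genes were higher in luminal than in basal cells of vehicle rats. The treated basal libraries are those whose depth and marker lists differed as given above, and the part of luminal cells in them was not tested.

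No junction gene was called between the arms at day 7 or day 14 in either fraction by limma, and nearly no other gene was: at day 7 and day 14, 0.00639% and 0% of all genes in basal cells and 0% in luminal cells at both days. At an unadjusted p under 0.05 the basal fraction had 1 and 0 genes and the luminal fraction 2 and 7; edgeR called 0 in each, and DESeq2 called 2 in luminal cells at day 14 and 0 otherwise. Without the 4 rats that stood apart, 3 genes were called higher in treated luminal cells at day 7: DSC2 (1.37), GJA1 (1.34) and PKP1 (1.48), with 2 rats left in each arm and beside 2.28% of all genes in that fit, and 0 in the other 3 comparisons.

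In vehicle rats luminal GJB2 rose between day 0 and day 14. Luminal GJB2 was 2410.4, 1566 and 2011 at day 0 and 6706, 9739 and 5528 at day 14 (log2 1.86, SE 0.34, adjusted p = 0.0267), and the treated rats of day 14 held 8155, 5409 and 3465. It was the 1 junction gene of 56 called, beside 0.389% of all genes, and it was lost when any 1 of the 6 rats was left out. In vehicle basal cells none of 57 junction genes was called between these days with every rat, beside 0.0384% of all genes. There GJB2 had an adjusted p of 0.0813 (limma). Without the 4 rats that stood apart, 4 genes were called in luminal cells (GJB2, CLDN6, CLDN10 and JUP) and 4 in basal cells, where GJB2 was higher at day 14 by 2.45 on the log2 scale (adjusted p = 0.0161), with DSC2, DSG3 and JUP. In these fits 2.77% of all genes were called in luminal and 1.41% in basal cells.

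**Figure D3:**
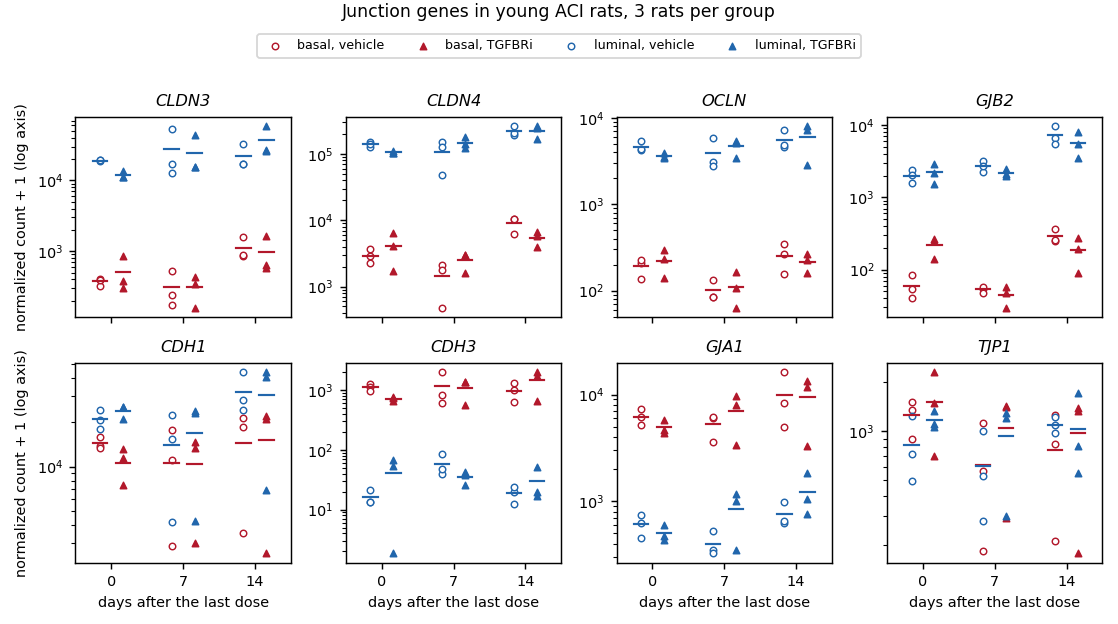
Normalized counts plus 1 on a log axis of 8 junction genes in basal and luminal cells of young ACI rats at 0, 7 and 14 days after the last dose. Each point is 1 rat, open for vehicle and filled for TGFBRi, and short lines are means of 3 rats. The gap between fractions exceeded that between arms for CLDN3, CLDN4, OCLN, CDH3 and GJA1, and the low CDH1 and TJP1 points belong to the libraries that stood apart.

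In the CD45+ leukocyte fraction of the same rats at day 0, CDH3 was 0, 9.34 and 16.6 in treated and 35.8, 279 and 67.2 in vehicle rats (log2 -3.97, SE 0.94, adjusted p = 0.0357), and GJA1 was 171, 237 and 120.3 and 521, 536 and 736 (log2 -1.79, SE 0.42, adjusted p = 0.0344). These were 2 of 53 junction genes tested, both lower, beside 2.01% of all genes called lower. Both calls were lost with edgeR, in a fit of only the groups compared, and without vehicle replicate 2 or treated replicate 1, while 1 gene was called without treated replicate 3, 4 without treated replicate 2 and 3 without vehicle replicate 3. Both are basal genes, and the summed basal marker list of this fraction was 128 to 424 in treated and 3643 to 11935 in vehicle rats, with 6 of its 8 genes called lower. Its part in the result was not tested.

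In young SD rats at day 0 no junction gene was called by TGFBRi in basal or luminal cells (46 tested in each, 3 and 1 at an unadjusted p under 0.05, and 0 by edgeR and DESeq2), and 0% of all genes were called in either fraction. OCLN in basal cells was 239.6, 197, 255 and 279 in treated and 145, 192, 175 and 147 in vehicle rats, higher in 4 of 4 but not past the correction (log2 0.55, adjusted p = 0.98).

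Among the bulk comparisons of TGFBRi with vehicle, adult virgin basal cells had the most junction genes called. In these cells the adherens junction genes CDH1, CTNNB1 and CTNND1 were lower after TGFBRi, together with the scaffold TJP1. DSC3, PKP1, MARVELD3 and CLDN5 were lower too, giving 8 of 47 junction genes lower and 0 higher, beside 6.23% of all genes called lower. Of the 8 calls, those of CTNNB1 and CTNND1 held without the 2 treated libraries that stood apart. The 2 treated libraries left in that setting leaned the same way in milder form, as given above. Whether the 2 calls are separate from that shift of many genes was not tested. By structure the 8 were 3 of 7 adherens junction genes, 2 of 7 desmosomal genes, 3 of 25 tight junction genes and 0 of 8 gap junction genes. The adherens junction genes not called included the catenin CTNNA1 and the cadherin CDH3. The median log2 difference was -1.25 over the junction genes tested and -0.25 over all genes.

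CTNND1 was 1031, 847, 578 and 318 in treated and 2627, 2241, 1986 and 2441 in vehicle rats (log2 -1.87, SE 0.29, adjusted p = 0.00194). CTNNB1 was 1838, 2221, 1026 and 855 against 4095, 3472, 3874 and 3696 (log2 -1.46, SE 0.25, adjusted p = 0.00318), and CDH1 11359, 13052, 6884 and 6433 against 37530.1, 21872, 23268 and 16173 (log2 -1.39, SE 0.28, adjusted p = 0.00697). TJP1 was 284, 334, 300.4 and 236 against 1422, 675, 685 and 581 (log2 -1.46, SE 0.35, adjusted p = 0.0175). For each of these 4 genes every treated rat was below every vehicle rat, and treated replicates 3 and 4, the libraries that stood apart, were the lowest for CTNND1, CTNNB1 and CDH1. Leaving out treated replicate 3 called 5 genes and leaving out replicate 4 called 9. Without both, a setting chosen after seeing the data that leaves 2 treated rats, CTNND1 (log2 -1.31, SE 0.24, adjusted p = 0.00781) and CTNNB1 (log2 -0.90, SE 0.20, adjusted p = 0.0195) were still called lower, and CDH1 (log2 -0.95, adjusted p = 0.0766), TJP1 (log2 -1.35, adjusted p = 0.084), DSC3, PKP1, MARVELD3 and CLDN5 were not. CLDN8 was then called higher, and 4 junction genes in all were called lower, beside 3.45% of all genes. DSC3 was 1074, 1789.8, 361 and 755 against 1433, 3626, 3623 and 2886 (log2 -1.67, SE 0.43, adjusted p = 0.0236), and PKP1 1779, 2395, 987 and 646 against 1842, 3597, 3442 and 2513 (log2 -1.10, SE 0.33, adjusted p = 0.0498), both with overlap of the groups. The desmosomal plakoglobin JUP, at 16666, 11518, 19328 and 15626 in treated and 32576, 18755, 19036 and 15227 in vehicle rats, was not called.

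MARVELD3 was 0, 19.6, 0 and 0 in treated and 243, 26.7, 47.5 and 19.5 in vehicle rats (adjusted p = 0.0192), and CLDN5 0, 58.7, 0 and 43 against 710.3, 26.7, 109 and 109.5 (adjusted p = 0.0474). For both the groups overlapped, and the highest value was that of vehicle replicate 1. The same library gave the highest vehicle values of CTNND1, CTNNB1, CDH1 and TJP1. That library also held the most of the endothelial list, a sum of 10477 against 322 to 817 in treated rats, and CLDN4 at 191947 against 6113 to 18184 in the other vehicle rats; their part in the result was not tested. Without vehicle replicate 1, 7 genes were called. Only 1 gene was called when the fit held only the virgin groups, and 13 with DESeq2. The share of all genes called lower given above belongs to the main fit, not to these settings. Of the cell type markers, 2 of 7 mature luminal, 2 of 5 Schwann and 1 of 6 endothelial genes were called lower in treated rats. The mature luminal marker list was 2407 to 2749 in the treated group against 4313 to 8657 with vehicle, and treated libraries listed 10151 to 11434 genes above 0 against 12123 to 12561.

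In parous rats no junction gene was called (47 tested, 4 at an unadjusted p under 0.05, 0 by edgeR and DESeq2), beside 0.00744% of all genes. CTNND1 was 1986, 2407, 2239 and 2456 in treated and 2419, 2215, 1559 and 3169 in vehicle parous rats, and TJP1 was 1149, 1378, 1263 and 1311 and 873, 874, 378 and 1538. Here the arms overlapped. The difference between the effects in parous and virgin rats was itself called for 3 genes, CTNND1 (log2 1.86, SE 0.42, adjusted p = 0.0441), TJP1 (log2 2.10, SE 0.49, adjusted p = 0.0492) and CTNNB1 (log2 1.53, SE 0.36, adjusted p = 0.0492), beside 0.863% of all genes called higher. For CDH1 it was log2 1.33, adjusted p = 0.103. The 3 calls were lost with edgeR and when each sample was centred on its median gene, leaving 0, and 12 of the 16 rats decided them: without any 1 of these rats 0 genes were called. Without treated virgin replicates 3 and 4 together the 3 differences were log2 1.3, 1.99 and 0.97 for CTNND1, TJP1 and CTNNB1 and were not called (adjusted p of 0.0522, 0.0935 and 0.0796), and CLDN8 was the 1 gene called. Parity itself called no junction gene in vehicle rats (7 at an unadjusted p under 0.05, 0 by edgeR, 3 by DESeq2), and 0% of all genes.

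**Figure D4:**
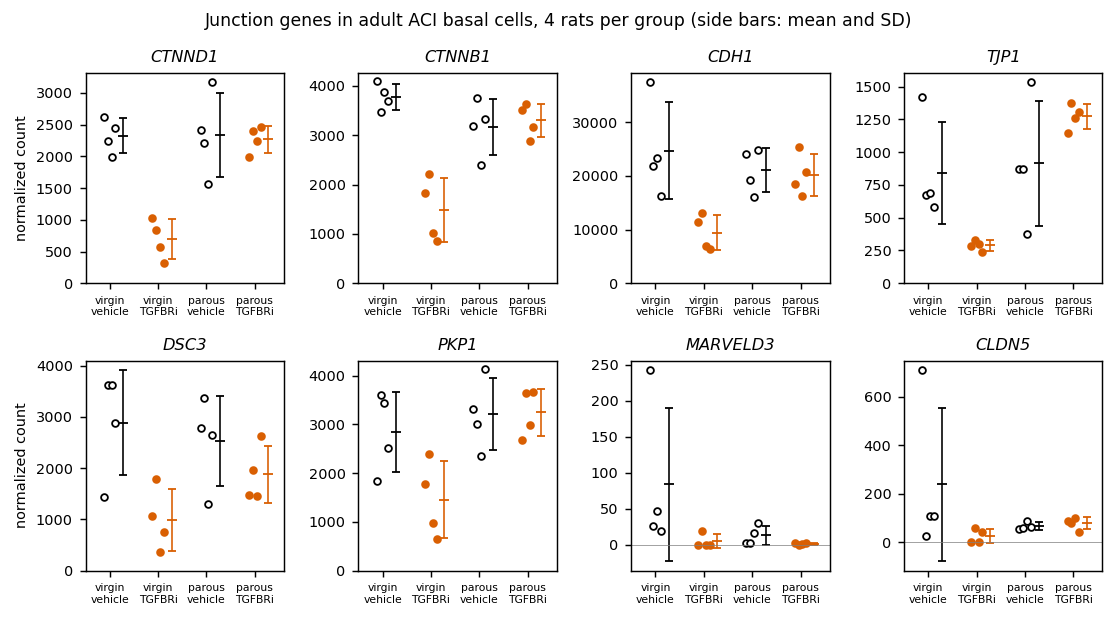
Normalized counts of the 8 junction genes called in virgin rats, in basal cells of adult virgin and parous ACI rats given vehicle (open) or TGFBRi (filled). Points are rats, 4 per group, and side bars are mean and SD. The treated virgin rats lay below the vehicle virgin rats for CTNND1, CTNNB1, CDH1 and TJP1, and the parous groups overlapped for CTNND1 and TJP1.

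Other junction genes, from lists apart from the 62, moved in the same libraries of virgin rats. Of 13 other adherens junction genes tested 3 were lower, among them CDH2 (N-cadherin, -4.43) and LIMA1 (-1.22), and ACTN1 was higher (1.14). Of 17 other tight junction genes CGNL1 (-4.32), JAM3 (-1.01) and MAGI1 (-0.92) were lower. Of 12 regulators of epithelial junctions SNAI2 (1.33) and TWIST1 (1.3), known repressors of CDH1, were higher, and GRHL2 (-0.87) and OVOL1 (-1.71), known to maintain epithelial junctions, were lower. The 3 other desmosomal and 2 other gap junction genes were not called. Of all 13442 genes tested in this comparison, 336 were called higher and 837 lower. Whether the calls in these lists held without the 2 treated libraries that stood apart was not tested. The part of the regulators in the CDH1 values was not tested either.

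In adult luminal cells no junction gene was called in virgin or parous rats (53 tested, 3 and 8 at an unadjusted p under 0.05, 0 by edgeR, 0 and 1 by DESeq2), beside 0% and 0.0281% of all genes. CTNND1 in parous luminal cells was 2292, 2287, 1979 and 2967 in treated and 1073, 1857, 815 and 640.4 in vehicle rats (log2 1.22, adjusted p = 0.0981), and CDH1 in virgin luminal cells was 48705, 25897, 56569.7 and 21072 and 41932, 32073, 29125 and 22215 (log2 0.20, adjusted p = 0.933).

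The comparisons made in the tumor experiments, in basal and luminal cells and tumor EPCAM+ cells of NMU-exposed rats and in luminal cells of the E2 experiment, called no junction gene at the 0.05 threshold. The CD45+ cells of these experiments and the TGFBRi-treated tumor-bearing rats with E2 were not compared here. In normal luminal cells of NMU-exposed rats, 10 of 52 genes had an unadjusted p under 0.05 between treated tumor-free and vehicle tumor-bearing rats (0 by edgeR, 2 by DESeq2), and 0.948% of all genes were called. The lowest adjusted p was that of PKP3, which was 9293, 6413 and 6139.8 in treated tumor-free and 1709, 2362 and 3865 in vehicle rats (log2 1.52, adjusted p = 0.0819). Without vehicle replicate 3, 9 genes were called in this comparison and 7 in that with treated tumor-bearing rats, for which 0.212% of all genes were called with every rat; in the fits without that rat 14.3% and 10.8% of all genes were called. In basal cells 1 and 8 of 44 had an unadjusted p under 0.05 in tumor-free and tumor-bearing treated rats (edgeR 0 and 1, DESeq2 0 and 5), beside 0% and 1.31% of all genes called.

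In the tumors themselves, sorted as EPCAM+ cells, 4 of 47 junction genes had an unadjusted p under 0.05 (0 by edgeR and DESeq2), and 0% of all genes were called. CLDN4 was 16838, 13424 and 8567 in tumors of treated and 31508, 45365 and 42751 in tumors of vehicle rats, without overlap (log2 -1.66, adjusted p = 1). TJP1 went the other way, 412, 361 and 528 against 157, 192 and 247 (log2 1.13, adjusted p = 1). With 3 rats per group neither passed the correction. In the E2 experiment 46 junction genes were tested in luminal cells and 1, 4 and 9 had an unadjusted p under 0.05 for TGFBRi without E2, TGFBRi with E2 and E2 in vehicle rats (0 by edgeR in each, 4 by DESeq2 for E2), beside 0.0147%, 0.0147% and 1.48% of all genes called. CLDN8 had a mean of 914 without and 2574 with E2 and did not pass the test (log2 1.75, adjusted p = 0.072).

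Single cells of young rats at day 0 showed TGFBRi effects within classes, tested on the summed counts of each class in each rat (edgeR quasi-likelihood test, adjusted p of 0.1). In the sorted libraries of both strains β-catenin and p120-catenin were lower after treatment in all 3 epithelial classes, while CLDN3 was higher in luminal progenitor-like cells of both strains. In ACI basal-like cells 9 of 38 junction genes were higher and 7 lower (all genes 16.2% and 18.0%), in luminal progenitor-like cells 9 and 10 of 33 (14.6% and 13.8%) and in mature luminal-like cells 3 and 9 of 35 (13.7% and 12.4%). Vehicle and treated cells of the basal-like and progenitor-like classes mostly lay in different clusters, such as clusters 0, 3 and 7 against 2, 5 and 10 for basal-like cells and 9 against 4 for luminal progenitor-like cells, while clusters 1 and 6 held mature luminal-like cells of both arms. The scaling of the test raised log2 differences by 0.23, 0.35 and 0.22 over those of the levels per 10,000 in these classes, and no called gene named here changed sign with it.

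In ACI basal-like cells CTNNB1 was 0.507, 0.477 and 0.483 UMIs per 10,000 in treated and 1.06, 1.05 and 1.01 in vehicle rats (log2 -0.86, adjusted p = 6.71e-05), and CTNND1 was 0.560, 0.641 and 0.576 and 1.2, 1.26 and 1.32 (log2 -0.86, adjusted p = 7.48e-05). The arms did not overlap for either catenin. CDH1 itself was 2.39, 2.45 and 2.49 and 2.39, 2.33 and 2.14 (log2 0.33, adjusted p = 0.0242), and on the levels themselves its log2 difference was 0.09. TJP1 was lower (-0.30) and JUP higher, at 1.85, 1.98 and 1.79 against 1.64, 1.63 and 1.17 (log2 0.57, adjusted p = 0.00434). Luminal genes were called higher in basal-like cells at trace levels: CLDN4 was 0.124, 0.154 and 0.0484 against 0.0232, 0.0334 and 0.0320, far under the 36.5 of vehicle progenitor-like cells. No class that should lack CLDN4 was named in this data set, so the level that free RNA gives is not known here.

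In ACI luminal progenitor-like cells CLDN4 was 60.9, 52.8 and 44.9 in treated and 39.3, 42.4 and 27.7 in vehicle rats (log2 0.87, adjusted p = 0.00247), and every treated rat was above every vehicle rat. CLDN3 (0.55), CLDN7 (0.58), CLDN23 (0.91), F11R (0.36), CDH1 (0.40) and the connexins GJB1 (0.90) and GJB2 (0.88) were higher too. CTNNB1 was 0.447, 0.373 and 0.403 against 0.861, 0.907 and 0.799 (log2 -0.72, adjusted p = 0.00103), and CTNND1 (-0.90), PKP4 (-0.75), TJP1 (-0.40), TJP3 (-0.60), MARVELD2 (-0.43) and CLDN8 (-0.34) were lower. On the levels per 10,000 the log2 differences were 0.54 for CLDN4, 0.21 for CLDN3, 0.01 for F11R and 0.05 for CDH1. Those of F11R and CDH1 thus rest largely on the scaling, and so does much of that of CLDN3. Leaving out vehicle replicate 3 reduced the calls from 19 to 11. In mature luminal-like cells the desmosomal genes DSP, DSC2, PKP1 and PKP4 were lower, DSP at 1.88, 1.95 and 1.58 against 4.07, 3.16 and 2.60 (log2 -0.64, adjusted p = 0.00754), and GJA1 was 0.770, 0.897 and 0.725 against 1.67, 1.37 and 1.34 (log2 -0.65, adjusted p = 0.002).

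In sorted SD cells 10 of 42 junction genes were higher and 5 lower in basal-like cells (all genes 15.3% and 14.3%), 2 and 6 of 41 in luminal progenitor-like cells (14.6% and 14.0%), and 4 and 8 of 39 in mature luminal-like cells (16.2% and 15.6%). The 6 treated rats were not alike. CTNNB1 in basal-like cells was 0.948, 0.887 and 0.871 in vehicle rats, and in treated rats 0.537 and 0.544 in replicates 1 and 6 and 0.131 to 0.164 in replicates 2 to 5 (log2 -1.33, adjusted p = 0.0398). All 6 treated rats lay below the vehicle rats, but replicates 1 and 6 lay between the vehicle rats and the other treated rats. They did so in the other classes too: in luminal progenitor-like cells CTNNB1 was 1.04, 1.18 and 0.958 in vehicle rats and 0.618 and 0.634 in replicates 1 and 6 and 0.123 to 0.212 in replicates 2 to 5 (log2 -1.41, adjusted p = 0.0616), and in mature luminal-like cells 0.804, 0.860 and 0.859 and 0.429 and 0.418 in replicates 1 and 6 and 0.0956 to 0.138 in replicates 2 to 5 (log2 -1.69, adjusted p = 0.0249). DSP had the same order in basal-like cells, 9.69, 8.54 and 10.5 in vehicle rats and 7.22 and 6.77 in replicates 1 and 6 and 2.32 to 3.07 in replicates 2 to 5 in treated rats (log2 -0.87, adjusted p = 0.0784). The labels give no group for this division, so no comparison was made between these rats.

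CTNND1 was lower in the 3 SD classes (-1.16 in basal-like, -1.41 in luminal progenitor-like and -1.09 in mature luminal-like cells). CLDN3 in luminal progenitor-like cells was 7.21, 7.88, 9.04, 12.4, 13.3 and 7.48 in the 6 treated and 7.16, 6.47 and 6.16 in the 3 vehicle rats (log2 0.92, adjusted p = 0.0642), higher in each treated rat than in any vehicle rat. CLDN3 (0.79) and CLDN7 (0.87) were higher in mature luminal-like cells, in which DSP (-1.06), TJP1 (-0.86) and GJA1 (-0.78) were lower. The SD counts moved with single rats of either arm: from 15 in basal-like cells, 2 genes were called without vehicle replicate 1, 0 without replicate 3 and 8 without treated replicate 3, from 8 in luminal progenitor-like cells, 0 without any 1 of the vehicle replicates, 4 without treated replicate 4 and 13 without treated replicate 6, and from 12 in mature luminal-like cells, 5 and 7 without vehicle replicate 1 and 2. Vehicle cells lay mainly in clusters 6, 0 and 10 for the 3 classes and treated cells in clusters 1, 3 and 4, in 2, 5, 8 and 9, and in 7, 11 and 12, and clusters 3, 8 and 9 came from 1 library each for 99.2, 96.4 and 96.9% of their cells. The scaling of the test raised log2 differences by 0.41, 0.36 and 0.31.

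In whole glands of SD rats more junction genes were lower than higher after TGFBRi in all 3 epithelial classes. In luminal progenitor-like cells 20 of 44 were lower and 3 higher, beside 14.7% and 12.9% of all genes, among them 11 of 22 tight junction genes and 4 of 7 desmosomal genes. In mature luminal-like cells 22 of 39 were lower and 3 higher (15.2% and 12.4%), and 16 of these lower genes were called in both luminal classes (80% of the 20 and 72.7% of the 22). How many of all genes were called lower in both classes was not counted. The genes lower in both included DSP and PKP1, which were called higher in the basal than in the luminal sort. Among the 3 epithelial classes of sorted vehicle rats DSP was lowest in progenitor-like cells. The part of free RNA from basal cells in the progenitor-like counts of these genes was not tested. In basal-like cells 14 of 43 were lower and 4 higher (23.1% and 22.5%). Without vehicle rat 4, whose cell classes stood apart, 12 were lower and 2 higher in luminal progenitor-like cells, 19 and 2 in mature luminal-like cells and 11 and 4 in basal-like cells. The shares of all genes above belong to the fits with every rat.

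CDH1 in mature luminal-like cells was 2.27 to 2.95 UMIs per 10,000 in the 6 treated rats and 4.8, 5.86 and 5.70 in the 3 vehicle rats (log2 -1.15, adjusted p = 2.46e-05), and in luminal progenitor-like cells 1.38 to 2.78 against 4.08, 2.92 and 4.45 (log2 -1.04, adjusted p = 0.0128). Treated and vehicle rats did not overlap in either class. In basal-like cells CDH1 was 1.67 to 2.15 against 2.48, 2.41 and 1.76 and was not called (log2 -0.17, adjusted p = 0.39). CLDN3 in mature luminal-like cells was 7.03 to 9.81 against 15.3, 19 and 21.1 (log2 -1.19, adjusted p = 3.46e-05), OCLN 0.573 to 0.787 against 1.39, 1.48 and 1.59 (log2 -1.19, adjusted p = 1.73e-05), and CLDN7 in luminal progenitor-like cells 4.81 to 8.15 against 12.4, 11.4 and 14.9 (log2 -1.11, adjusted p = 0.00286). Again the arms were separate. CLDN3 in luminal progenitor-like cells was 7.60 to 11.9 against 12.9, 11 and 18.2, with overlap (log2 -0.69, adjusted p = 0.0281), the opposite direction to that called in the sorted libraries of both strains. CLDN4 was lower in both luminal classes (-0.88 and -0.80), in the progenitor-like class with overlap, 20.3 to 46.4 against 61.4, 43.2 and 63.3. The scaffold TJP1 (-1.07 and -0.84) was lower as well.

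A few genes rose in the same cells. CLDN8 was 0.134 to 0.278 in treated and 0.0561, 0.0461 and 0.0552 in vehicle rats in mature luminal-like cells (log2 2.02, adjusted p = 0.00016), and it was also higher in progenitor-like (2.20) and basal-like cells (1.2). GJB1 in progenitor-like cells was 0.132 to 0.513 against 0.130, 0.0818 and 0.0234 (log2 1.90, adjusted p = 0.0423), and TJP3 0.148 to 0.289 against 0.0700, 0.0861 and 0.0891 (log2 1.3, adjusted p = 0.00298). Each treated rat was above each vehicle rat for these 3.

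In basal-like cells 6 of 10 desmosomal genes, 7 of 20 tight junction genes, 1 of 7 gap junction genes and 0 of 6 adherens junction genes were lower, and the structures were not tested against each other. DSP was 4.35 to 7.04 in treated and 11.1, 10.1 and 8.85 in vehicle rats (log2 -0.92, adjusted p = 0.000579), and JUP was 2.35 to 3.09 and 4.55, 5.19 and 4.42 (log2 -0.86, adjusted p = 0.00027), both without overlap. PKP1 (-1.64), DSG3 (-1.28), PKP3 (-0.45) and PKP4 (-0.25) were lower, and CTNND2 (0.85), F11R (0.47) and CLDN11 (2.43) higher. Luminal claudins were also called lower in these cells, but at the levels of background, CLDN4 at 0.0861 to 0.206 against 0.229, 0.184 and 0.397. CTNNB1, which was lower in the 6 classes of the sorted libraries, was 1.82 to 2.28 against 2.23, 2.16 and 2.12 in whole-gland basal-like cells (log2 -0.05, adjusted p = 0.774). CTNND1, also lower in those 6 classes, was lower in whole-gland mature luminal-like cells as well, at 1.03 to 1.2 in treated and 1.41, 1.28 and 1.41 in vehicle rats (log2 -0.32, adjusted p = 0.0476), without overlap. CTNND1 in whole-gland progenitor-like (-0.18, adjusted p = 0.373) and basal-like cells (0.02, adjusted p = 0.913) and CTNNB1 in progenitor-like (-0.35, adjusted p = 0.216) and mature luminal-like cells (-0.21, adjusted p = 0.155) were not called. The sorted and whole-gland libraries were made with different kits from different rats, and the difference between their effects was not tested.

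Leaving out vehicle rat 1 lowered the count of called genes from 18 to 11 in basal-like cells. Pairing rats by their shared numbers, which leaves 3 rats per arm, called 12 in luminal progenitor-like cells. Vehicle basal-like cells lay mostly in cluster 11 and treated ones in cluster 6, while mature luminal-like cells of both arms lay mostly in cluster 9. Progenitor-like cells were divided between clusters 3 and 8: cluster 8, whose cells held a median of 0.259 times the median UMIs per cell of their library against 2.40 times in cluster 3, had 44.6% of the treated and 27.7% of the vehicle cells of the class. Without cluster 8, a setting chosen after seeing the data, 20 junction genes of this class were lower and 3 higher, the same counts as with it. In endothelial-like cells 6 of 33 junction genes were lower and 2 higher, beside 31.5% of all genes in either direction. PKP4 was 0.812 to 1.09 in treated and 0.442, 0.446 and 0.303 in vehicle rats (log2 0.97, adjusted p = 0.000552), CTNND1 and CTNNB1 were lower (-0.55 and -0.49), and CLDN5 was 1.36 to 4.68 against 3.10, 3.67 and 3.44 and was not called. CLDN3 (-1.37), CLDN7 (-1.33) and CDH1 (-1.18) were also called lower in this class, at trace levels: CLDN3 was 0.0269 to 0.0790 in treated and 0.155, 0.144 and 0.0584 in vehicle rats, CLDN7 0.0233 to 0.0729 against 0.133, 0.142 and 0.0284, and CDH1 0.0121 to 0.0278 against 0.0536, 0.0404 and 0.0111. For these 3 genes vehicle rat 4, the last of each set, lay within or under the treated range. These genes were also lower in whole-gland luminal cells, and the part of free RNA from those cells in the counts was not tested. The 8 calls of endothelial-like cells became 5 without treated rat 6, 4 without vehicle rat 2 and 11 without vehicle rat 4.

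Of the other adherens junction genes, 7 of 13 were lower and 1 higher in whole-gland luminal progenitor-like cells (all genes 14.7% and 12.9%). In mature luminal-like cells 8 and 2 of 13 were (all genes 15.2% and 12.4%). The actin linkers VCL (-1.15 and -1.16) and ACTN1 (-1.03 and -1.56), NECTIN2 (-1.03 and -0.76) and EPCAM (-1.33 and -0.45) were lower in both classes, and PLEKHA7 (0.90 and 1.5), a p120-catenin partner at the apical belt, was higher in both. Of the other tight junction genes 4 were lower and 3 higher of 18 in the progenitor-like class and 4 and 2 of 17 in the mature class. The keratins KRT8 (-0.61 and -0.42) and KRT17 (-3.51 and -3.85) were lower in both. Relative to the levels per 10,000, the scaling of the test shifted log2 differences by 0.00 in basal-like, -0.15 in luminal progenitor-like, -0.06 in mature luminal-like and -0.20 in endothelial-like cells, and no called junction gene changed sign with it.

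**Figure D5:**
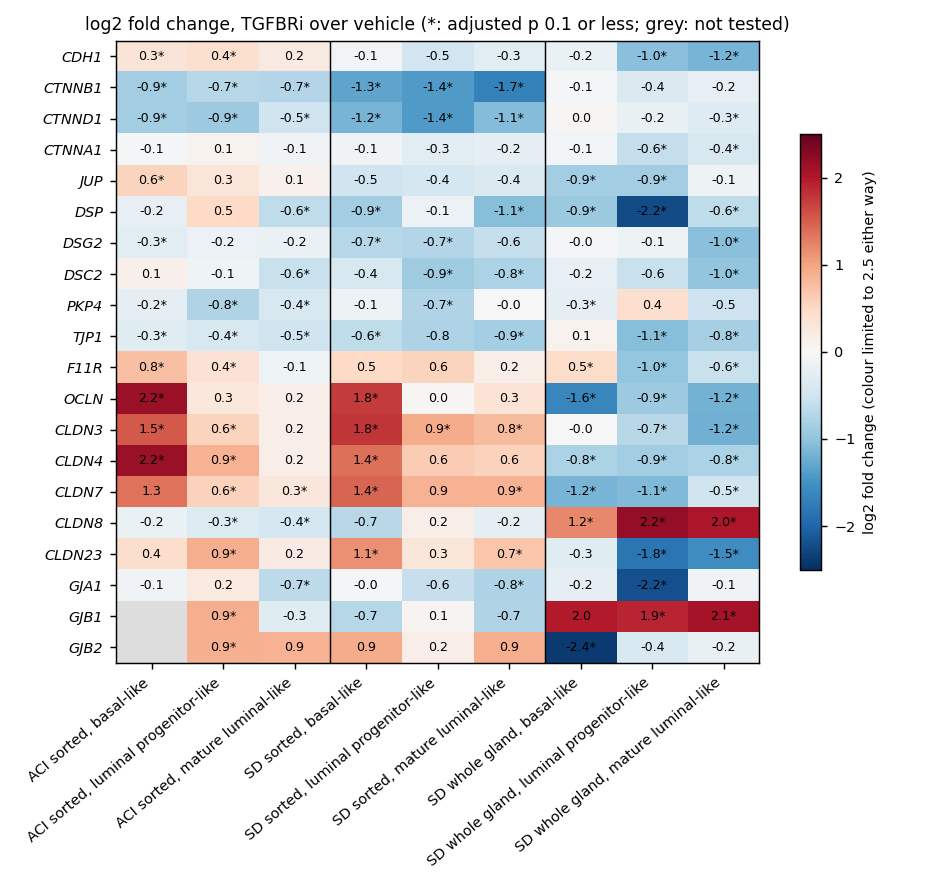
log2 fold change, TGFBRi over vehicle, of 20 junction genes (rows) in 3 epithelial classes of sorted ACI, sorted SD and whole-gland SD libraries (columns). Red is higher and blue lower after TGFBRi, an asterisk marks an adjusted p of 0.1 or less, and grey was not tested. CTNNB1 and CTNND1 are lower with an asterisk in the 6 sorted columns, and CDH1 is lower in the 2 whole-gland luminal columns.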

How the data were processed

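Bulk RNA-seq (SMARTer v4 libraries) was, per the methods, aligned with STAR 2.5.1b to rn6 and counted by HTSeq without strand; the authors deposited the gene counts as normalized signal values scaled by DESeq2 1.30.1 size factors, after keeping genes with at least 10 counts. The authors scaled basal and luminal libraries together for young rats and separately for adults, so adult fractions were not compared. Within a sample all deposited values were multiples of 1 step (100% within a tolerance of 0.001 reads, steps 0.457 to 4.00), so reads could be recovered, and 85 samples held rows for reads in no gene (23.1 to 42.5%), which were left out. Sorted single cells (10x 3′ v3, Cell Ranger 4.0.0) and whole glands (10x 5′ HT v2, Cell Ranger 7.0.0) were deposited as raw UMI counts. The numbers of deposited cells equal those the paper kept after its filters. Cells with more than 15% mitochondrial genes had been removed. From the sorted cells those with any read of PTPRC (CD45) or fewer than 2 keratin reads had been removed as well. Whether these filters acted alike on both arms was not tested.

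Groups came from the sample labels; 1 CD45+ library titled day 9 is described and labelled as day 7 and was kept there. The junction genes, gene lists and tests were chosen with earlier results of these data known. Bulk values were tested with limma 3.58.1 on log2(value + 1), genes with a sum of at least 10, all groups of a fraction (of both fractions for lineage) in 1 fit, Benjamini-Hochberg adjusted p of 0.05; fold changes on this scale understate those of low genes. Single cells (all deposited cells) were clustered without junction genes (30 principal components, 20 neighbours, resolution 0.8, leidenalg 0.10.2); the thresholds for naming clusters were set after seeing the data. Doublets were scored, and the 6% highest per library were left out in an alternative. Summed counts per class and rat (at least 10 cells; genes with at least 10 UMIs) were tested with edgeR 4.0.16 quasi-likelihood at an adjusted p of 0.1. DESeq2 1.42.0, another pseudocount, filters, scalings and leave-outs were alternatives. Both tests were tested on simulated data. Genes chosen for naming passed the threshold and averaged 50 or more normalized counts (20 or more UMIs per rat) in the higher group. The 12 largest per direction were taken for young bulk lineage and 8 elsewhere, plus a set of 30 core junction genes. Some genes outside these limits are named too. Among them CLDN2, CLDN11, CLDN14, CLDN17 and CLDN22 averaged under 50 normalized counts in both layers of young ACI vehicle rats. Basal and luminal libraries of 1 rat deviated together (correlation of deviations 0.0594 to 0.870 in 18 young ACI pairs, 0.0837 to 0.269 in 8 young SD pairs), the pairing coming from the rat labels; label numbers shared between arms did not pair adult (-0.238 to 0.181) or whole-gland rats (-0.294 to 0.435). Results for 4 genes are not reported here.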

Additional observations from a re-analysis of the deposited data

Results flagged for a closer look

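In young SD vehicle luminal cells, DSC3 was 28.5 normalized counts in 1 rat (replicate 1) and 0 in the other 3, which set that rat apart from its group. MARVELD3 in basal cells of TGFBRi-treated adult virgin rats was 19.6 in replicate 2 and 0 in the other 3. These were 2 of 69 groups examined for a sample far from the others, where chance alone gives about 1 in 20.

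The TGFBRi effect in adult basal cells differed between parous and virgin rats in the fit of all adult basal libraries, by log2 1.53 for CTNNB1, 1.86 for CTNND1 and 2.10 for TJP1 (limma, adjusted p of 0.0492, 0.0441 and 0.0492). All 3 were lower after TGFBRi in virgin rats and not called in parous rats. The 3 calls were lost with edgeR, with each sample centred on its median, without any 1 of 12 of the 16 rats, and without treated virgin replicates 3 and 4 together. Of 23 alternatives, 5 kept the call for CTNNB1, 8 for CTNND1 and 6 for TJP1.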

How the results depend on the processing

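Of 602 recomputed counts over 44 results, 498 kept their side of the threshold or stayed within 1.5 times the main count, and of 3138 recomputed single-gene values 2723 kept their call, 415 lost it and 0 reversed. With limma on only the groups compared, the count of called junction genes went from 8 to 1 in adult virgin basal cells, from 2 to 0 in CD45+ cells at day 0, from 1 to 2 in basal and from 1 to 4 in luminal cells at day 0, from 1 to 6 between days in luminal cells and from 0 to 1 in NMU luminal tumor-free rats. A pseudocount of 5 gave 4 in basal cells at day 0 and 1 for the adult parity interaction, and centring gave 0 for the latter. edgeR gave 0 in CD45+, basal and luminal cells at day 0 and for the parity interaction, and 1 in NMU basal and NMU luminal tumor-bearing rats. DESeq2 gave 13 in adult virgin basal cells, 5 for the parity interaction, 3 for parity in basal cells, 1 in adult parous luminal cells, 4 in basal cells at day 0, 2 in luminal cells at day 14, 4 and 2 between days in basal and luminal cells, 1 and 1 for the interaction of treatment and day in basal and luminal cells, 2 for that of treatment and lineage, 5 and 2 in NMU basal and luminal tumor-bearing rats, 2 in NMU luminal tumor-free rats, 4 for E2 in vehicle rats, and 10 instead of 16 in ACI basal-like cells. Taking all cells of the sort gave 8 instead of 15 in SD basal-like and 13 instead of 8 in SD luminal progenitor-like cells. Without the 4 rats whose basal CDH1 was low, a setting chosen after seeing the data, there were 3 in luminal cells at day 7 and 4 between days in each fraction. Without the 2 treated adult virgin rats of low basal CDH1, also chosen after seeing the data, there were 5 in adult virgin basal cells and 1 for the parity interaction. The causes were not tested.

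Leaving out 1 replicate at a time gave 5 to 9 in adult virgin basal cells, 0 to 1 in adult parous luminal cells and for parity in luminal cells, 0 to 4 for the parity interaction and in CD45+ cells at day 0, 0 to 9 at day 0 in basal cells and 0 to 8 at day 0 in luminal cells, 0 to 1 between days in basal and 0 to 0 in luminal cells, 0 to 2 for treatment by day in basal cells, 0 to 3 and 0 to 7 in NMU basal and luminal cells of tumor-bearing rats, 0 to 9 in NMU luminal tumor-free rats, 0 to 3 for E2 in vehicle rats, 11 to 17 in ACI luminal progenitor-like, 0 to 18, 0 to 13 and 5 to 14 in SD basal-like, luminal progenitor-like and mature luminal-like cells, and 11 to 16, 14 to 21 and 4 to 11 in whole-gland basal-like, luminal progenitor-like and endothelial-like cells.

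With a replicate block by shared label, 8 genes were called in adult virgin basal cells and 0 in the other adult comparisons, 15, 12, 19 and 2 in whole-gland basal-like, luminal progenitor-like, mature luminal-like and endothelial-like cells (3 rats per arm), and with the rat as block 38 and 33 between the layers in bulk ACI and SD rats, 41 and 31 between the sorts in ACI and SD single cells, and 4 for the interaction of treatment and lineage in young ACI rats (0 without the block); these numbers pair no adult or whole-gland rats. Depth limits low genes most: a level of 0 in these libraries does not show absence.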
